A study of Mus musculus with 3 samples.

Results

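The respiratory chain and ATP synthase genes were taken by symbol. A gene was a member when its symbol began with Nduf, Uqcr, Cox4 to Cox8 or Atp5, or was Sdha, Sdhb, Sdhc or Sdhd. This rule found 93 genes, each read by 1 transcript cluster, among the 22206 clusters of the array. Of these, 84 encode subunits, with 36 in complex I, 4 in complex II, 8 in complex III, 19 in complex IV and 17 in complex V. The other 9 are assembly factors, 8 Ndufaf genes of complex I and Cox7a2l, which helps join complexes III and IV into supercomplexes. Ndufb4 and Ndufb4b are near-identical copies, and how the array divides signal between them is uncertain.

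Complexes I and II pass electrons from NADH and succinate to ubiquinone, complex III hands them on to cytochrome c and complex IV passes them to oxygen. Complexes I, III and IV pump protons across the inner mitochondrial membrane, and complex V, the ATP synthase, uses the returning protons to make ATP. AT2 cells, which make the surfactant of the alveolus, are rich in mitochondria and draw on this chain for lipid synthesis and secretion. All members are nuclear genes.

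AT2 cells came from female Sftpc/GFP mice (CBA/Ca × C57BL6J) aged 9 to 11 weeks, in which the Sftpc promoter drives GFP. Mice breathed air, continuous cigarette smoke (CS) or intermittent CS. Both CS groups received smoke in daily sessions of 60 minutes, 5 days a week, in 3 weeks of a 5-week protocol, and were killed 24 hours after the last exposure. Smoke weeks were consecutive in the continuous group and separated by weeks of air in the intermittent group. EpCAM-high, GFP-high cells of 3 mice were pooled per exposure, and 100 ng of RNA was hybridized to 1 Clariom S array. The reporter is also weakly active in some cells of the terminal bronchiole. With 1 array per exposure there was no replicate, so the spread between mice is unknown and no difference was tested. In a bulk sort, fewer cells of a type and less RNA per cell cannot be told apart.

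The deposited values are on the log2 scale, and 1 unit is a 2-fold difference. Their median was 5.66 to 5.70 across the 3 arrays. Background was set at the 95th percentile of 1412 olfactory and vomeronasal receptor clusters, which lay between 5.14 and 5.19, and 55.8% to 56.3% of all clusters exceeded it. All 13 measured AT2 markers exceeded it on every array. Sftpc, Sftpa1, Sftpb, Slc34a2 and Lyz2 stood at the highest value of the table, 19.93, on all 3 arrays, so a difference in these AT2 markers could not be read. Among the other AT2 markers, Abca3 read 18.12 after air, 17.95 after continuous CS and 18.31 after intermittent CS, and Cebpa read 13.38, 13.25 and 13.48. Values of markers of other lung cells are given after the comparisons.

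Promoters of 5 members named in the comparisons are printed as examples of the sequence around a start site. They do not stand for the members as a whole. Each run holds 250 bases before and 50 bases from the annotated start, 5′ to 3′, from RefSeq on GRCm38.p6, and all 5 genes lie on the minus strand. Atp5g2 (chr15:102670998-102671297) and Atp5l (chr9:44920693-44920992) are ATP synthase subunits that were higher on both CS arrays. Uqcr11 (chr10:80406772-80407071), a small complex III subunit, and Ndufaf1 (chr2:119662785-119663084), a complex I assembly factor, were lower on both. Each held an identical value on both CS arrays, and Uqcr11 was only 1.16-fold lower than after air. Ndufb8 (chr19:44555393-44555692) had the widest range of the members. Capitals mark matches to motifs of NRF1 (GCGCANGCG) and of ETS factors such as GABPA (CCGGAAG), read on either strand.
Atp5g2: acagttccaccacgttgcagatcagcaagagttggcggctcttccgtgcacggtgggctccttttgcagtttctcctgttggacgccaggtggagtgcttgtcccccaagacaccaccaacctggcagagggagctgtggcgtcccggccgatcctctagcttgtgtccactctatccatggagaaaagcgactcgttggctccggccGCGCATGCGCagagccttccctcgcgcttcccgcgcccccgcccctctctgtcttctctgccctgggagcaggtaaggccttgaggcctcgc
Atp5l: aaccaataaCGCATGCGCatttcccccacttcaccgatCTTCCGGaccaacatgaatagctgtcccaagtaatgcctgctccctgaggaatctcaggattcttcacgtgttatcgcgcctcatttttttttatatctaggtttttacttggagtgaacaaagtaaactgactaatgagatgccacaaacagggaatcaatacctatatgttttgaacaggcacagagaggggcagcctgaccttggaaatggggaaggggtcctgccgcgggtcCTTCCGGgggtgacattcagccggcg
Uqcr11: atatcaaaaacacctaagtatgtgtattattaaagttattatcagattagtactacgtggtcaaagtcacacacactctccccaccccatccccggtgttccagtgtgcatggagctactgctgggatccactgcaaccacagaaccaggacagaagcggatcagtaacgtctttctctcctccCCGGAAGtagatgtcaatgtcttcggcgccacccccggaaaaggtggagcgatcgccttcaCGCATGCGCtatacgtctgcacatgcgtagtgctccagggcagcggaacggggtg
Ndufaf1: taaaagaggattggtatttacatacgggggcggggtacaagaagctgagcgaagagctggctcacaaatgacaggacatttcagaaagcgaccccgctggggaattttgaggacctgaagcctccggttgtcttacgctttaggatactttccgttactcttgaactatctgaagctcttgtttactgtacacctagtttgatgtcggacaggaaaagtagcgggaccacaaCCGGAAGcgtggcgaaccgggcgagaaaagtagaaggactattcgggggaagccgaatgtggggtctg
Ndufb8: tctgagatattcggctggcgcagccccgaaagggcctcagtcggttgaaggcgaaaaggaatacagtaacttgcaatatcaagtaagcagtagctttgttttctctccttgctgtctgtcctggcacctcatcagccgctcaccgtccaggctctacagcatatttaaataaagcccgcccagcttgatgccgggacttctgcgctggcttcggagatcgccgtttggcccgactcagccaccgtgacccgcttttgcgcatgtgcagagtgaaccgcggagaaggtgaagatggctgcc

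In the Atp5g2 window the NRF1 motif was read on both strands, starting 42 and 41 bases before the start site, since the letters in capitals there equal their own reverse complement. Atp5l held an NRF1 motif 241 bases before its start and an ETS motif 212 bases before it, with another ETS match from base 25 after it. In Uqcr11 the NRF1 motif began 5 bases and the ETS motif 66 bases before the start. Ndufaf1 held an ETS motif 18 bases before the start, and Ndufb8 held neither motif. A match is a description of the letters and not a binding site.

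Of the 93 members, 86 exceeded background on all 3 arrays, 3 on some arrays and 4 on none. The 3 at the edge were Ndufaf6, Cox7a1 and Atp5k, whose values lay between 5.05 and 5.44. The 4 below were isoforms of subunits that also have a widely expressed form. Cox4i2, the oxygen-responsive partner of Cox4i1, read 4.61 after air, 4.29 after continuous CS and 4.29 after intermittent CS. Cox7b2 read 4.49, 4.52 and 4.49 in the same order, and Cox8b, the muscle form, read 3.48 on every array. Ndufa4l2, a hypoxia-induced relative of Ndufa4, read 3.25, 3.25 and 3.16. No member reached the highest value of the table, 19.93.

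**Figure D1:**
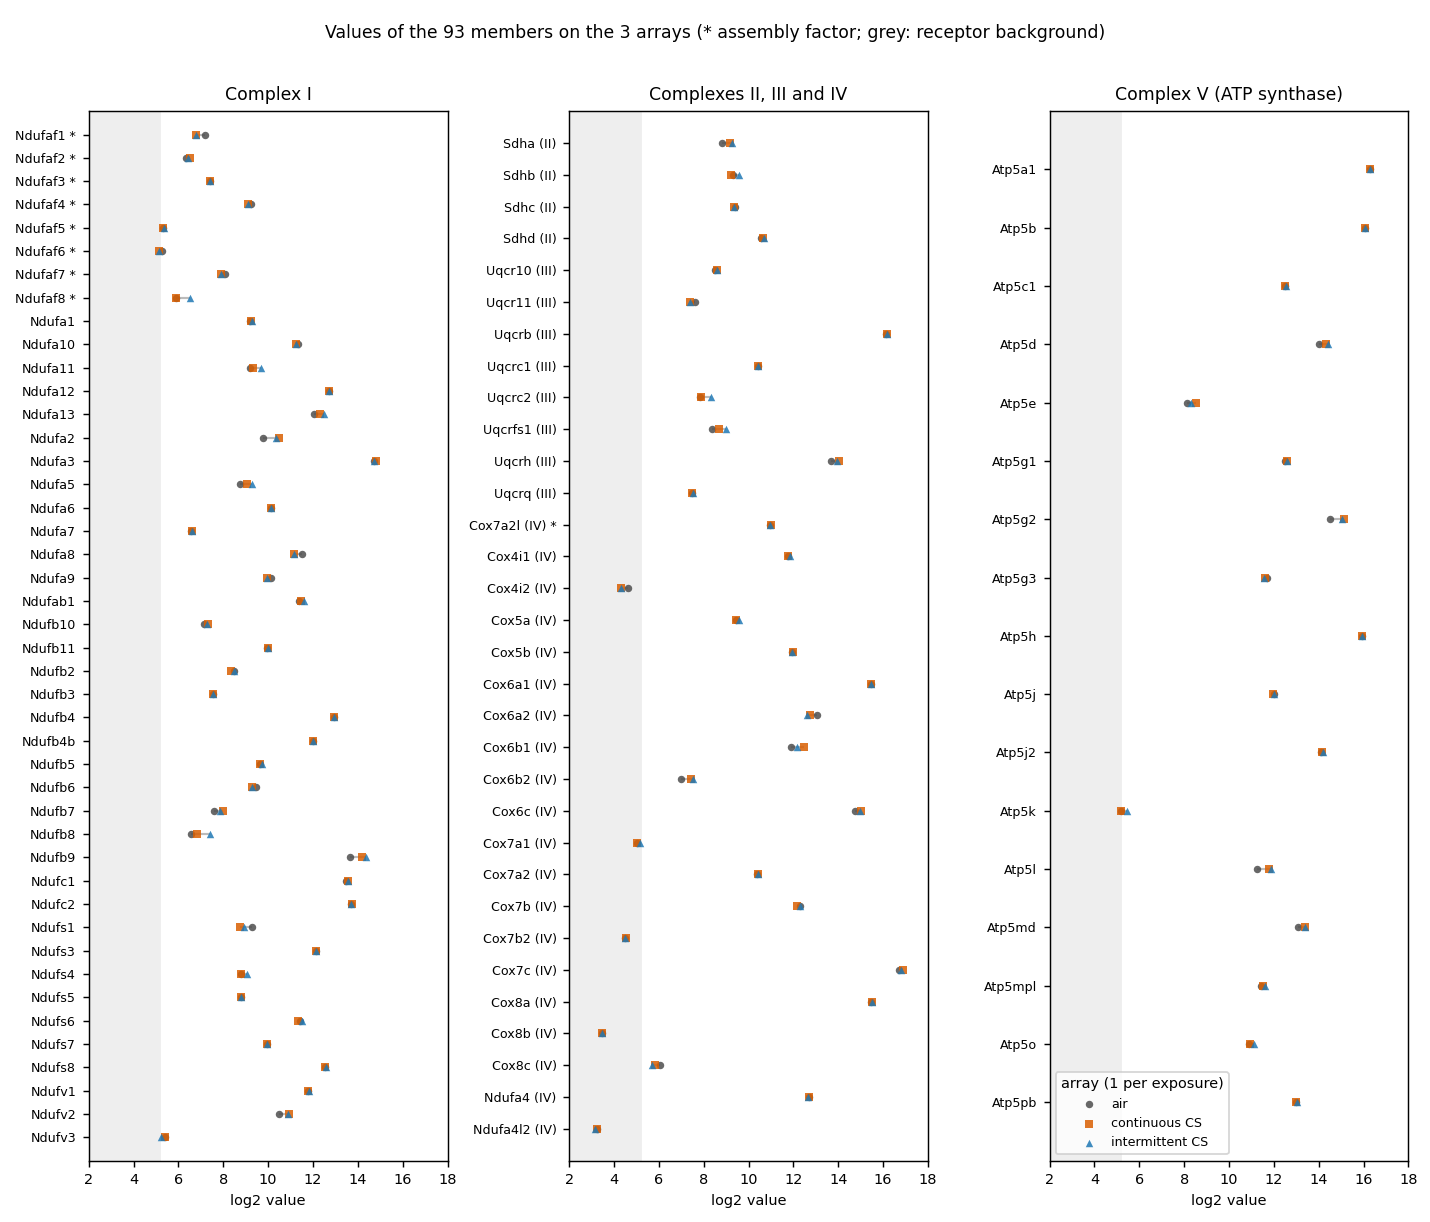
Log2 value of each of the 93 members (x axis) on the air, continuous CS and intermittent CS arrays, 1 point per array, with a line from the lowest to the highest and the receptor background in grey. Most lines are short: 48 members varied by less than 1.1-fold over the 3 arrays, and the widest, Ndufb8, by 1.84-fold.

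No member was 2-fold apart in any of the 3 pairs of arrays. Among all clusters, 1.6% were 2-fold apart between continuous CS and air, 1.55% between intermittent CS and air and 0.752% between the CS arrays. Over the 3 arrays, 48 members (51.6%) varied by less than 1.1-fold, against 41.2% of all clusters. A range of at least 25% of the lowest value was seen for 25 members and of at least 1.5-fold for 7, namely Ndufb8, Ndufa2, Ndufb9, Uqcrfs1, Atp5l, Atp5g2 and Ndufaf8. The shares of all clusters with ranges this wide were not counted, so neither count can be read as high or low.

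After continuous CS, 43 members read higher than after air, 27 lower and 23 the same, with a median log2 difference of 0. Over all clusters 37.6% read higher and 38.1% lower, and over those above background on any array 41.0% and 39.7%. At a smaller threshold, where the higher value exceeded the lower by at least 25% on the linear scale, 13 members (14%) were higher and 4 (4.30%) lower. Among all clusters the shares were 10.3% higher and 9.7% lower, and among clusters above background on either array 13.3% and 11.4%. The share of members higher was thus near the background, and the share lower was below it.

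After intermittent CS, 54 members read higher than after air, 24 lower and 15 the same, with a median of 0.05. Over all clusters 36.9% read higher and 38.7% lower, and over those above background on any array 41.5% and 39.9%. At the 25% threshold, 15 (16.1%) were higher and 5 (5.38%) lower. The shares of all clusters were 10% and 10.6%, and of clusters above background 13.4% and 12.7%. Both comparisons use the same air array, so an unusual value there enters both.

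Between the CS arrays, 44 members read higher after intermittent CS, 25 lower and 24 the same, with a median of 0. Over all clusters 36.1% read higher and 36.4% lower, and over those above background on any array 39.5% and 37.8%. At the 25% threshold, 5 (5.38%) were higher and 0 lower after intermittent CS. All clusters gave 6.7% higher and 8.4% lower, and clusters above background 7.6% and 9.76%.

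Subunits and assembly factors were then read separately. The 84 subunits had a median difference of 0 after continuous CS and 0.06 after intermittent CS against air, with means of 0.07 and 0.11. The median after intermittent CS was 0.03 with quantile normalization and 0.04 with cyclic loess. After intermittent CS, 51 subunits were higher than after air, 20 lower and 13 the same. Over all clusters in that pair the median was 0, 36.9% were higher and 38.7% lower. Among clusters above background on any array 41.5% were higher and 39.9% lower. The 9 assembly factors had a median of 0 in both comparisons, with means of −0.06 and −0.01. Of these 9, 2 were higher and 4 lower after continuous CS, and 3 were higher and 4 lower after intermittent CS. The 4 lower genes were Ndufaf1, Ndufaf4, Ndufaf6 and Ndufaf7 both times, and each held an identical value on both CS arrays. Between the CS arrays 5 of the 9 (55.6%) were identical, against 27.5% of all clusters. The 2 comparisons are therefore not separate readings for these genes.

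**Figure D2:**
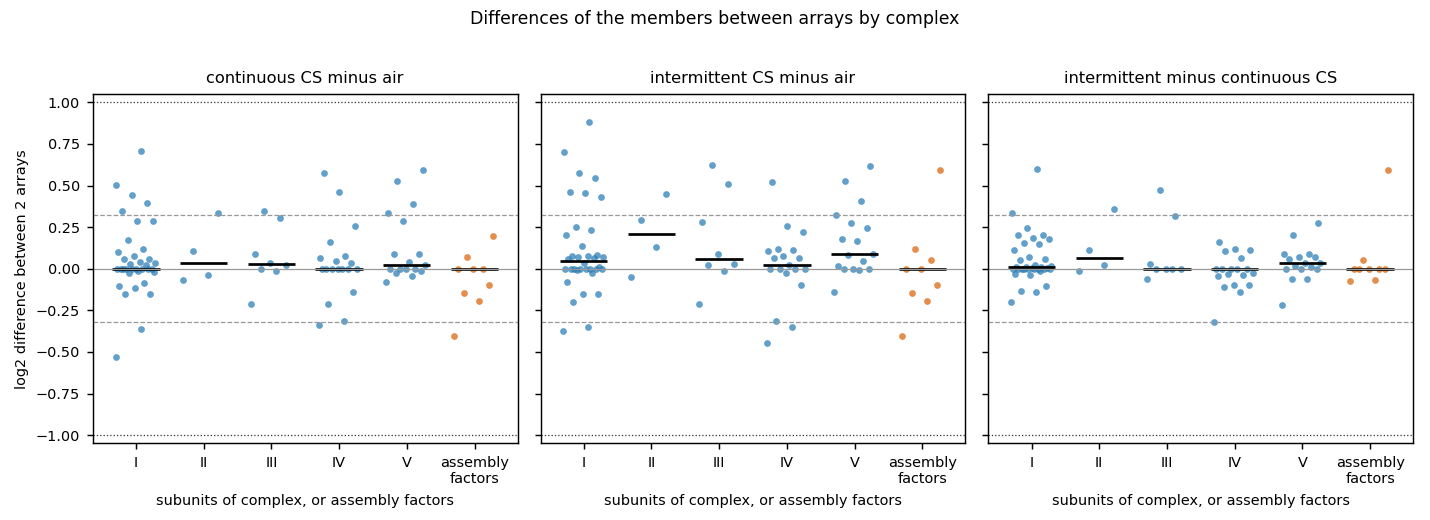
Log2 difference of each member between 2 arrays (y axis) for the subunits of complexes I to V and the assembly factors, 1 point per gene, with the median as a black bar, the 25% threshold as dashed lines and 2-fold as dotted lines. No point passes 2-fold, and the medians lie between 0 and 0.21 in the 2 comparisons with air.

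Complex I, the NADH dehydrogenase, held members at both ends. Its 36 subunits had a median difference of 0 after continuous CS and 0.05 after intermittent CS against air. The accessory subunit Ndufb8 of the membrane arm read 6.54 after air, 6.83 after continuous CS and 7.42 after intermittent CS. It was highest after intermittent CS, 1.84-fold above air and 1.51-fold above continuous CS. Its neighbour in the membrane arm, Ndufb9, read 13.67, 14.17 and 14.37 in the same order of exposures. Air was again lowest, with differences of 0.50 and 0.70, or 1.42-fold and 1.63-fold. Ndufa2, an accessory subunit of the matrix arm, read 9.76, 10.47 and 10.34. Both CS arrays exceeded air, by 1.63-fold and 1.49-fold. Ndufa11, a membrane arm subunit, read 9.21, 9.33 and 9.67, and intermittent CS was 1.26-fold above continuous CS.

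Other complex I subunits were lower after CS. Ndufs1, a core subunit that carries iron-sulfur clusters, read 9.28 after air, 8.75 after continuous CS and 8.91 after intermittent CS. Both CS arrays lay below air, by 1.44-fold and 1.29-fold. Ndufa8, an accessory subunit on the intermembrane-space side, read 11.51, 11.14 and 11.16, and was 1.29-fold and 1.27-fold lower. The NADH-binding core subunit Ndufv1 differed little, at 11.76, 11.79 and 11.84. Its iron-sulfur partner Ndufv2 read 10.47, 10.91 and 10.90, 1.36-fold and 1.35-fold above air. The core genes therefore did not share a direction, and the median of the 6 core subunits was 0 after continuous CS and 0.04 after intermittent CS. Ndufb7 was highest after continuous CS, at 7.59, 7.98 and 7.84. Ndufv3, close to background, was lowest after intermittent CS, at 5.42, 5.42 and 5.22.

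Among the assembly factors, Ndufaf1, which helps build the membrane arm, read 7.20 after air, 6.80 after continuous CS and 6.80 after intermittent CS. It was 1.33-fold lower on each CS array. Ndufaf8, which in human cells works with NDUFAF5, read 5.91, 5.91 and 6.50. It stood 1.51-fold higher after intermittent CS than on the other arrays, at values near background. Ndufaf4 (9.25, 9.10 and 9.10) and Ndufaf7 (8.09, 7.90 and 7.90) were lower on both CS arrays without reaching the 25% threshold, and Ndufaf3 read 7.42 throughout. Cox7a2l, the supercomplex factor, read 10.95, 11.02 and 10.95.

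Complex II, succinate dehydrogenase, had the highest subunit median after intermittent CS against air, 0.21 over 4 genes, and 0.04 after continuous CS. Sdha, the flavoprotein that oxidizes succinate, read 8.83 after air, 9.17 after continuous CS and 9.28 after intermittent CS. Air was lowest, and the CS arrays were 1.26-fold and 1.36-fold above it. Sdhb, the iron-sulfur subunit, read 9.30, 9.23 and 9.59, so that intermittent CS was 1.28-fold above continuous CS. The membrane anchors Sdhc (9.39, 9.35 and 9.34) and Sdhd (10.54, 10.65 and 10.68) differed less.

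Complex III, which receives electrons from ubiquinol, had subunit medians of 0.03 and 0.06 against air. Its Rieske iron-sulfur protein Uqcrfs1 read 8.35 after air, 8.66 after continuous CS and 8.98 after intermittent CS. The values stepped up from air to intermittent CS, which was 1.54-fold above air. Uqcrc2, a core protein, read 7.83, 7.87 and 8.34, with the intermittent CS array 1.42-fold above air and the continuous CS array 0.03 above it on the log2 scale. Uqcrc1, the other core protein, read 10.43, 10.42 and 10.42. Uqcr11, a small accessory subunit, read 7.62, 7.40 and 7.40, 1.16-fold lower after CS.

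Complex IV, cytochrome c oxidase, has several subunits with isoforms for different tissues. The 11 ubiquitous subunits had medians of 0.05 and 0.07 against air, and the 8 tissue-specific forms had medians of 0 and −0.05. Of these 8, Cox4i2, Cox7b2, Cox8b and Ndufa4l2 lay below background on every array, and Cox7a1 exceeded it on 1. Cox6b1, which faces the intermembrane space, read 11.90 after air, 12.48 after continuous CS and 12.16 after intermittent CS. It was highest after continuous CS, 1.49-fold above air, and its continuous CS value exceeded the intermittent one by more than that of any other member. Its testis form Cox6b2 read 6.99, 7.45 and 7.51, higher on both CS arrays by 1.38-fold and 1.44-fold. Cox6a2, the heart and muscle form, read 13.06, 12.72 and 12.61 and was lower by 1.26-fold and 1.36-fold, while the ubiquitous Cox6a1 read 15.46 on every array. Cox8c, a testis form, read 6.03, 5.82 and 5.68.

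The other isoform pairs differed little. Cox4i1 read 11.75, 11.75 and 11.86, and Cox5a read 9.44, 9.44 and 9.55. Cox7a2 read 10.37, 10.44 and 10.44 beside Cox7a1, the muscle form at background, with 5.05, 5.05 and 5.17. Cox8a (15.45, 15.52 and 15.52) and Ndufa4 (12.69, 12.69 and 12.67) stayed within 1.1-fold.

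Complex V had subunit medians of 0.02 after continuous CS and 0.09 after intermittent CS against air. At the 25% threshold, 4 of its 17 subunits were higher after continuous CS and 3 after intermittent CS, against 10.3% and 10% of all clusters, and 0 were lower, against 9.7% and 10.6%. Among clusters above background the shares were 13.3% and 13.4% higher, and 11.4% and 12.7% lower. Complexes II and III also had 0 lower, but with 4 and 8 subunits such a count says little. Atp5a1 and Atp5b, the alpha and beta subunits of the catalytic head, were almost level, at 16.30, 16.30 and 16.29 and at 16.06, 16.05 and 16.06. Larger differences were seen for single subunits rather than for 1 part of the enzyme. The 5 subunits classed with the head (F1), which include Atp5d and Atp5e, had means of 0.14 and 0.12 against air. The other 12 had means of 0.13 and 0.18. Atp5g2, one of the genes for the c subunit of the rotor ring, read 14.52 after air, 15.12 after continuous CS and 15.05 after intermittent CS. Air was lowest, and the CS arrays were 1.51-fold and 1.44-fold above it. The same mature protein is encoded by Atp5g1, at 12.51, 12.60 and 12.59, and by Atp5g3, at 11.69, 11.61 and 11.55. Among these c subunit genes the difference was thus seen for Atp5g2.

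Atp5l, subunit g of the membrane part, read 11.26 after air, 11.79 after continuous CS and 11.88 after intermittent CS. Both CS arrays were higher, by 1.44-fold and 1.54-fold. Atp5d, the delta subunit of the central stalk, read 14.01, 14.34 and 14.41 and was 1.26-fold and 1.33-fold above air. Atp5e, the epsilon subunit beside it, read 8.13, 8.51 and 8.29 and was highest after continuous CS, 1.31-fold above air.

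Identical values were common. The same value to all 5 decimals stood on the continuous CS and air arrays for 23 members (24.7%, against 24.3% of all clusters). It stood on the intermittent CS and air arrays for 15 (16.1%, against 24.4%) and on both CS arrays for 24 (25.8%, against 27.5%). On all 3 arrays 9 members (9.68%) shared 1 value, against 13.6% of all clusters. They were Ndufa12, Ndufb3, Ndufb4, Ndufb4b, Ndufs5, Cox6a1, Cox8b, Atp5h and the assembly factor Ndufaf3. No reading of a difference can be taken from these genes, and the sources used here do not say what made values identical.

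**Figure D3:**
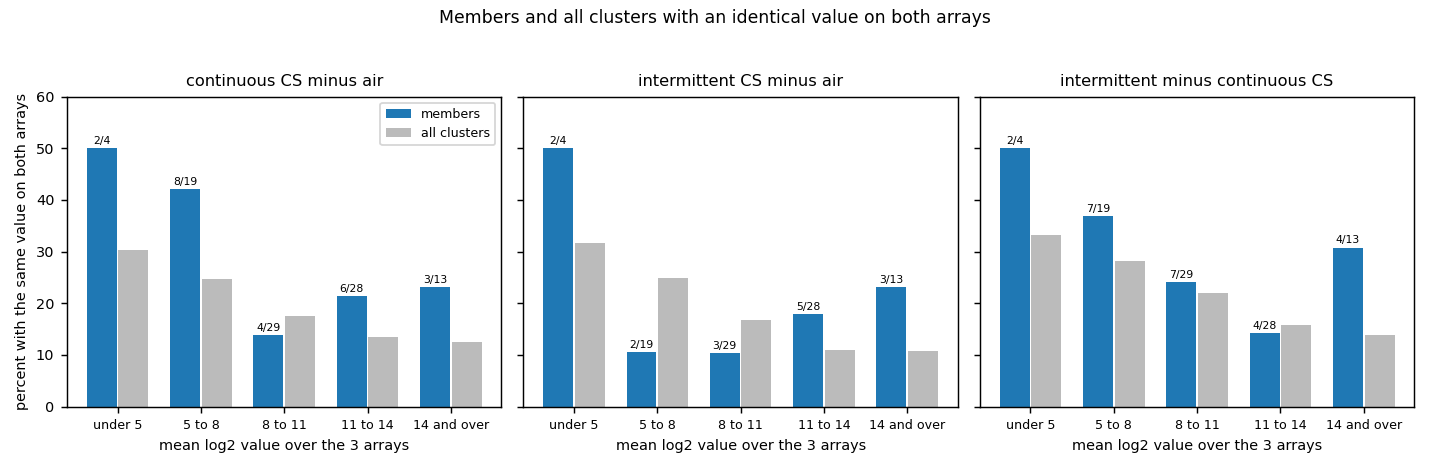
Percent of members (blue, with counts) and of all clusters (grey) holding an identical value on both arrays of a pair, by mean log2 value over the 3 arrays. Over all clusters the share falls with the value, from 30.3% under 5 to 12.6% at 14 and over between continuous CS and air, and identical members occur in every range.

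Identical values were less common among brighter clusters. Between continuous CS and air the share over all clusters was 24.7% for mean values of 5 to 8, 17.6% for 8 to 11 and 13.5% for 11 to 14. Members showed 8 of 19, 4 of 29 and 6 of 28 in these ranges. Between intermittent CS and air they showed 2 of 19, 3 of 29 and 5 of 28, against 24.8%, 16.7% and 10.9%.

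Genes that work beside the chain were read from lists chosen by function. The 40 measured assembly factors outside the rule had a median of 0 in all 3 pairs, and 5 of them passed the 25% threshold upward and 2 downward after intermittent CS against air. Over all clusters the shares in that pair were 10% and 10.6%, so the upward count was near the background. Cox11, which delivers copper to complex IV, read 7.27 after air, 7.81 after continuous CS and 8.19 after intermittent CS, 1.89-fold above air. Tmem186, an assembly factor of complex I, read 6.31, 6.12 and 6.88. Of 11 other respiratory chain genes, 3 were higher and 1 lower at the 25% threshold after intermittent CS than after air, with a median of 0. After continuous CS their median was −0.06 and their mean 0.02. Slc25a4, an ADP/ATP carrier, read 12.69, 13.10 and 13.21. Slc25a5, a brighter ADP/ATP carrier gene, went the other way, at 15.94, 15.80 and 15.77. Higd1a, a hypoxia-inducible partner of the chain, read 9.61, 8.94 and 9.24.

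Fuel pathways feeding the chain differed more in single genes than in their medians. The 22 mitochondrial fatty acid oxidation genes had medians of 0.03 and 0.08 against air and means of 0.12 and 0.36. After continuous CS 1 of them was 2-fold higher than after air, and after intermittent CS 4 were. Over all clusters 1.6% and 1.55% were 2-fold apart in either direction. Cpt1a, the gate of fatty acid entry into mitochondria, read 8.57 after air, 9.59 after continuous CS and 11.26 after intermittent CS. Eci2, which shifts double bonds of unsaturated fatty acids, read 11.36, 12.08 and 12.95. In both, intermittent CS was highest.

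The 17 tricarboxylic acid cycle genes had medians of −0.03 and 0.01 against air and 0.15 between the CS arrays. Idh2, which yields mitochondrial NADPH, read 12.92, 13.16 and 13.62, and Dlst, a subunit of oxoglutarate dehydrogenase, read 7.56, 7.56 and 8.16. Among 8 antioxidant and uncoupling genes, 3 passed the 25% threshold upward after continuous CS and 4 after intermittent CS against air, and 0 downward. Over all clusters 10.3% and 10% passed it upward and 9.7% and 10.6% downward, and a list of 8 genes is small. The uncoupling genes measured, Ucp1 and Ucp3, lay below background on every array. Sod2, the mitochondrial superoxide dismutase, read 12.71, 13.30 and 13.51, and Gpx4, which reduces lipid peroxides, read 13.35, 13.71 and 13.84.

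The 21 genes of mitochondrial biogenesis and its regulators had a median of 0 in all 3 pairs. Ppargc1a, a coactivator of respiratory chain genes, read 7.55 after air, 8.65 after continuous CS and 8.87 after intermittent CS. It was 2.14-fold and 2.48-fold above air, which no member reached. Polrmt, the mitochondrial RNA polymerase, was lower on both CS arrays, at 6.0, 5.11 and 5.35. Among the factors named for the motifs searched, Nrf1 read 9.69, 9.52 and 9.57, Gabpa 10.64, 10.79 and 10.79 and Yy1 11.42, 11.64 and 11.73. Gabpb1, a partner of GABPA, read 9.70, 10.19 and 10.32, 1.40-fold and 1.53-fold above air. Gabpb2, in the same list, went the other way, at 7.67, 7.16 and 7.40, and was lower on both CS arrays than after air.

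**Figure D4:**
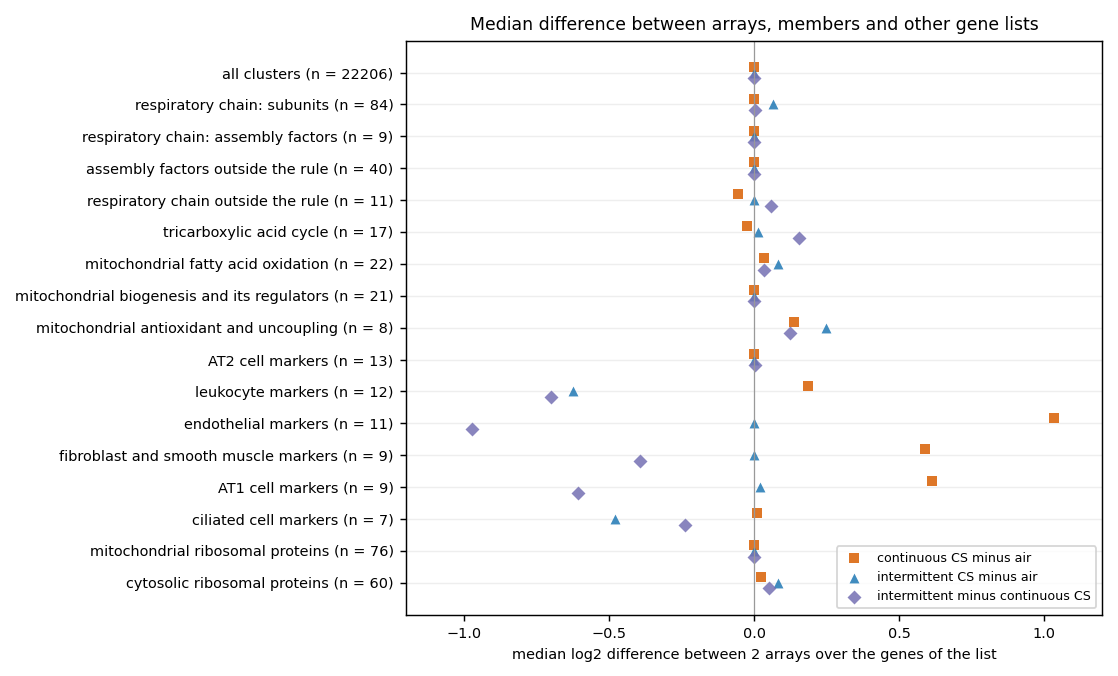
Median log2 difference over the genes of each list (x axis) for the 3 pairs of arrays. Medians of the subunits, at 0 to 0.06, lie near that of all clusters, while endothelial markers stand at 1.03 for continuous CS against air and at −0.97 between the CS arrays.

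Markers of other lung cells moved with the exposures. At the 25% threshold 10.3% of all clusters were higher after continuous CS than after air, and 10.6% were lower after intermittent CS. Of 11 endothelial markers, 10 passed the 25% threshold upward after continuous CS against air, with summed levels of 13.39 after air, 14.44 after continuous CS and 13.31 after intermittent CS. Ramp2 read 7.92, 10.24 and 8.86 and Ednrb 8.03, 9.74 and 8.30. Of 9 fibroblast and smooth muscle markers, 6 passed it upward after continuous CS, with sums of 13.19, 13.80 and 12.58, while Myh11, Lum and Tagln lay below background on every array. Dcn read 6.69, 8.65 and 7.62. Vim read 13.11, 13.69 and 12.42 and makes up most of these sums. After intermittent CS against air the list had a median of 0, with 3 markers higher, 3 lower and 3 the same.

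AT1 markers gave sums of 18.44, 18.68 and 18.57, in which Ager, the brightest of them, weighs most. After continuous CS against air 7 of 9 passed the 25% threshold upward, against 10.3% of all clusters. Their median was 0.61 in that pair, 0.02 for intermittent CS against air and −0.61 between the CS arrays. Spock2 read 8.75, 9.56 and 8.02 and Pdpn 9.36, 10.57 and 9.78. Leukocyte markers gave sums of 15.60, 15.88 and 15.55, and 9 of 12 passed the 25% threshold downward after intermittent CS against air. Cd53 read 9.90, 10.44 and 9.28 and Srgn 12.18, 12.67 and 11.54, highest after continuous CS. Ptprc (10.92, 10.41 and 10.20) and Cd52 (8.42, 7.91 and 7.66) were highest after air. Lcp1 read 14.79, 15.14 and 15.10, lowest after air, so against air the leukocyte markers did not share a direction. Lcp1, the brightest of them, weighs most in their sums. The median after intermittent CS against air was −0.63, with 1 marker higher, 10 lower and 1 the same. Between the CS arrays 0 of 12 were higher and 12 lower after intermittent CS, with a median of −0.70. Over all clusters in that pair 36.4% were lower. Of 7 ciliated cell markers, 4 passed the 25% threshold downward after intermittent CS against air, with sums of 12.42, 12.05 and 11.79. Of these 4, Sntn lay below background on every array (4.72, 4.49 and 4.04) and Ccdc39 after intermittent CS (5.33, 5.34 and 4.50). Tppp3 read 10.84, 9.84 and 9.39. The part of these cells in the differences of the members was not tested.

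Promoter letters were counted over the 77 members with a window in the RefSeq table. The NRF1 motif stood in 22 windows (28.6%), against 7.03% of the windows of all 27025 genes and 15.1% of 8827 genes above background on all arrays. The ETS motif stood in 19 (24.7%), against 9.93% and 19.7%. A YY1 motif (AAGATGGCG), which can share bases with the ETS motif, stood in 8 (10.4%), against 1.64% and 3.51%. An ESRRA motif (TCAAGGTCA) stood in 2, those of Atp5g3 and Sdhd, against 0.466% of all genes. At least 1 of the NRF1, ETS and YY1 motifs was found in 40 members (51.9%), against 16.5% and 33.5%.

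**Figure D5:**
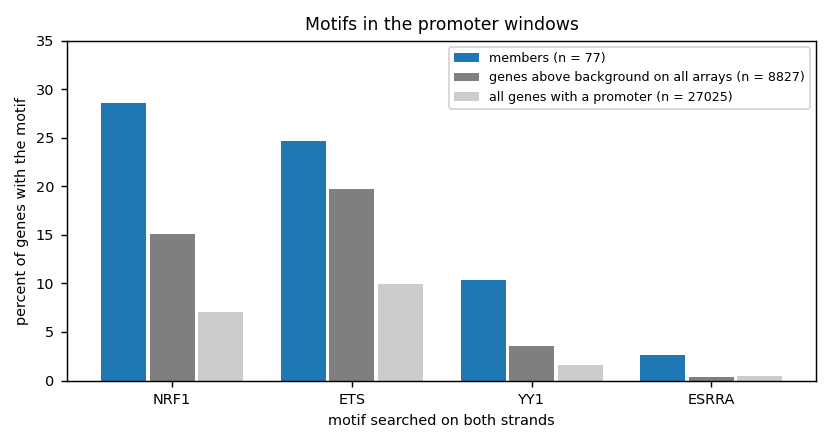
Percent of genes (y axis, bars from 0) with each of 4 motifs in the promoter window of 300 bases, for 77 members, 8827 genes above background on all arrays and all 27025 genes. The members' bars are the tallest for each motif, with 28.6% for NRF1 and 24.7% for ETS.

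Median differences of members with and without a motif were set side by side, with no test. For intermittent CS against air, the median was 0.05 in 22 members with an NRF1 motif and 0.07 in 55 without. It was 0.13 in 19 with an ETS motif and 0.05 in 58 without, and 0.08 in 8 with a YY1 motif and 0.06 in 69 without. After continuous CS the medians were 0 and 0.02 for NRF1, 0 and 0.01 for ETS and −0.01 and 0.02 for YY1. The 2 members with an ESRRA motif had medians of 0.01 after continuous CS and −0.00459 after intermittent CS. NRF1 motifs were found in 20 of 69 subunits and 2 of 8 assembly factors, and ETS motifs in 17 and 2.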

How the data were processed

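RNA of AT2 cells pooled from 3 mice per exposure was hybridized to Clariom S arrays, 1 per exposure. Scans were summarized by the authors in Transcriptome Analysis Console, and the deposited log2 values cover 22206 transcript clusters. The summarization and normalization, not given in the sources used here, decide how far small differences can be read. An array has no read depth, and the number of arrays limits the precision.

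Gene symbols came from the platform annotation, with 1 symbol for 19572 clusters, several for 0 and none for 2634. All 93 member symbols matched RefSeq on GRCm38.p6. Groups came from the sample labels. Values were used as deposited and subtracted between arrays, with no test. Differences of 2-fold, the study's threshold, and of at least 25% of the lower linear value were counted. Promoter windows of RefSeq genes were searched for 4 motifs on both strands.

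The members and lists were chosen with earlier results of these data known. Named were, per pair of arrays, the 5 members with the highest and the 5 with the lowest difference above background, core members, isoform pairs, Cox7a2l, members below background on every array, and the 2 genes of each other list with the largest absolute difference. Other named genes were chosen after their values were seen, and so were the ribosomal protein lists and the role given to Ndufb4b.

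Alternatives were median centring, quantile normalization, cyclic loess, a background filter, another background level, an offset of 32 on the linear scale, rounding to 2 decimals, and the mean in place of the median. Leaving out tissue-specific forms or Cox7a2l, and a floor at background, were added after seeing the data. Python 3.11.15 (numpy 2.4.6, pandas 2.3.3, matplotlib 3.10.9) and R 4.3.3 (limma 3.58.1) were used. The counting steps were tested on simulated data.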

Additional observations from a re-analysis of the deposited data

Results flagged for a closer look

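For 2 members the CS arrays lay on opposite sides of the air array, each by more than 0.05 on the log2 scale. Sdhb, the iron-sulfur subunit of complex II, read 9.30 after air, 9.23 after continuous CS and 9.59 after intermittent CS. The CS arrays differed by 0.36. Ndufs6, a zinc-binding subunit of complex I, read 11.43, 11.33 and 11.51, and the CS arrays differed by 0.18. With 1 array per exposure neither difference was tested.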

How the results depend on the processing

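No paired analysis was possible because each exposure has 1 array, and no array could be left out. A median was counted as moved when it differed by over 0.05 on the log2 scale, and as reversed when its sign turned with both values at least 0.05 from 0. A count was moved when over 1.5 times apart. By these limits, of 126 alternative values 119 stayed within, 7 moved and 0 reversed. A count could not be called reversed. Among the medians only that of the subunits for intermittent CS against air lay at least 0.05 from 0 as deposited, so only it could reverse. The 0.05 limit is also close in size to that median, so these totals say little about stability. The 119 include the settings that averaged or counted every cluster of a gene. These could not differ, because each member has 1 cluster, and say nothing about robustness. Within them, the subunit median for intermittent CS against air went from 0.0642 to 0.0266 with quantile normalization, 0.0370 with cyclic loess and 0.112 as a mean, and between the CS arrays from 0.000795 to −0.00215 with cyclic loess. For continuous CS against air it was −0.0200 with median centring and −0.00601 with quantile normalization. With the mean in place of the median, subunits stood at 0.0704 for continuous CS against air, and assembly factors at −0.0640 there and at 0.0558 between the CS arrays, against medians of 0. With identical members left out, the assembly factor median was −0.12 after continuous CS and −0.0948 after intermittent CS against air. Between the CS arrays, quantile normalization and cyclic loess each put 1 member, Cox6b1, past the 25% threshold downward after intermittent CS, against 0 as deposited. Members above background on all arrays numbered 86, and 82 with the 99th percentile of the receptor clusters. Rounding to 2 decimals gave 24, 16 and 26 identical members in place of 23, 15 and 24. How far these differences exceed the spread between mice or arrays is unknown.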

Other observations

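The 60 cytosolic ribosomal proteins, another set of abundant transcripts, were set beside the members after the data had been seen. Of these, 43 were higher and 10 lower after intermittent CS than after air, with a median of 0.08, and 37 were higher and 19 lower after continuous CS, with a median of 0.02. Rpl36 read 10.90 after air, 11.13 after continuous CS and 11.42 after intermittent CS, and Rpl37a read 12.51, 12.64 and 13.00. The 76 mitochondrial ribosomal proteins, which translate the subunits encoded in mitochondria, had a median of 0 in all 3 pairs. Of these, 25 were higher and 31 lower after intermittent CS than after air. Mrpl20 read 11.14, 11.55 and 11.87, and Mrps9 read 9.23, 8.67 and 8.61. No list was tested.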
